A study of Mus musculus with 8 samples.

Results

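Acetylation of lysine 9 of histone H3 (H3K9ac) was compared between a drug resistant and a drug sensitive mouse lung tumor. The H3K9ac set was every library of the series labelled with that mark, which gave 2 of 8 libraries, 1 from each tumor line. The sensitive line, LLC-NR, and the resistant line, LLC-R, were Lewis lung carcinoma grown as isografts under the skin of female C57BL/6J mice. LLC-R had been selected in mice through repeated rounds of treatment with VEGF-Trap, a decoy receptor that binds VEGF, and LLC-NR had not. Nuclei from tumor homogenate were digested with micrococcal nuclease, which cuts the linker DNA between nucleosomes. The mononucleosomes were precipitated with the same H3K9ac antibody (Abcam, ab10812) in both lines, and neither input nor IgG was used as a control here. Each deposited peak marks the place of 1 nucleosome and carries no height. A homogenate also holds host cells, so fewer cells of a type and less of the mark per cell cannot be told apart.

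H3K9ac is written by acetyltransferases such as Kat2a and Kat2b, removed by histone deacetylases and read by proteins with bromodomains or YEATS domains. It is known for its high level on the nucleosomes that flank the transcription start sites (TSSs) of active genes, where it stands together with H3K4me3. The start site itself is usually short of nucleosomes, and ordered nucleosomes follow it into the gene. Similar ordered arrays lie on both sides of sites bound by CTCF, the insulator protein that also anchors chromatin loops.

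On chromosomes 1 to 19 the LLC-NR library held 8152931 peaks and the LLC-R library 7491487. Each peak was 147 bp wide and no peaks overlapped, so the peaks covered 50.1% of the sequenced bases in LLC-NR against 46.0% in LLC-R. The study sequenced the LLC-NR H3K9ac library more deeply than the LLC-R one, and the part of depth in the differences below was not tested. Except where marked as before scaling, densities are therefore given relative to the library's own mean over chromosomes 1 to 19, as a fold. Log2 ratios are LLC-R over LLC-NR, from each library's own share of peaks. With 1 library in each line no test between the lines was possible. The 95% intervals cover counting error only, and they hold neither the spread between tumors nor that between preparations.

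Examples of the positions counted in the results below are shown here with the mm9 sequence under them. They were picked as illustrations, and no result rests on them. Promoter windows and motif matches of the opposite kind are counted below but not printed. The first pair shows neighbouring H3K9ac peaks in a gene-free stretch of chromosome 1, with CpG dinucleotides in capitals. The midpoint of the first peak stood at the same base in both libraries. The next one was found in LLC-NR, while the nearest LLC-R midpoint stood 162 bp away. The nearest protein-coding gene is Cdh20, a cadherin gene, 133404 bp or more away.
Shared peak, chr1:106531394-106531540, plus strand: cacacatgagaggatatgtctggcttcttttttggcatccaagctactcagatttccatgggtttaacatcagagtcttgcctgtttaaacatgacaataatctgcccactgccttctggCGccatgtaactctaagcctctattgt
LLC-NR-only peak, chr1:106531556-106531702, plus strand: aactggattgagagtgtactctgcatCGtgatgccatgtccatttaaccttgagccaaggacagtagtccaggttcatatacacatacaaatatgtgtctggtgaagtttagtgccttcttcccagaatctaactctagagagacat

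Both peaks held 1 CpG, and their GC content was 43.5% and 42.2%. They were picked to lie near the average composition of the shared and the LLC-NR-only peaks. The next 3 sequences show the window from -150 to -1 bp before the TSS of genes with a CpG-rich promoter, on the coding strand and with CpGs in capitals. In these windows LLC-NR had an H3K9ac midpoint and LLC-R had none, and no annotated exon lies in them. The LLC-NR midpoint stood at -59 bp for Pkm2, which encodes the muscle type pyruvate kinase. It stood at -27 bp for Smarca4, an ATPase of the SWI/SNF remodelling complex, and at -46 bp for Ptk2, which encodes focal adhesion kinase.
Pkm2, chr9:59504233-59504382, plus strand: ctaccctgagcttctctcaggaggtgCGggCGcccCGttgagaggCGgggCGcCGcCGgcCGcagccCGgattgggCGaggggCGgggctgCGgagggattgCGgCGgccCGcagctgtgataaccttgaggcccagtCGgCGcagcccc
Smarca4, chr9:21420463-21420612, plus strand: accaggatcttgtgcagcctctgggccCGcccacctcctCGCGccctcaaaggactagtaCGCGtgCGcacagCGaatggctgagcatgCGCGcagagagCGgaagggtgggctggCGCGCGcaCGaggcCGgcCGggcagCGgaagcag
Ptk2, chr15:73253622-73253771, minus strand: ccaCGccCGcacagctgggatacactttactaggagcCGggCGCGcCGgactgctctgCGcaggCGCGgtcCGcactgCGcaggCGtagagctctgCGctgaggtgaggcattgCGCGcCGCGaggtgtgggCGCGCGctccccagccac

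The last pair shows matches of the CTCF core motif, a pattern of 13 bp that was searched on both strands, with 120 bp on each side of the middle of the match and the match in capitals. At the first site, near Cntfr, LLC-NR midpoints stood at -151 and 143 bp from the middle of the match and LLC-R midpoints at -149 and 145 bp. The match itself lay free between them in both lines. At the second, in an intron of Hpse2, LLC-NR midpoints stood at -150 and 146 bp. In LLC-R a midpoint lay on the match, at -8 bp, and the next at 142 bp. Both sites were picked for LLC-NR midpoints close to the pooled maxima. The first was also picked for LLC-R midpoints close to those of LLC-NR, and the second for an LLC-R midpoint close to the match.
Free in both lines, chr4:41600441-41600681, minus strand: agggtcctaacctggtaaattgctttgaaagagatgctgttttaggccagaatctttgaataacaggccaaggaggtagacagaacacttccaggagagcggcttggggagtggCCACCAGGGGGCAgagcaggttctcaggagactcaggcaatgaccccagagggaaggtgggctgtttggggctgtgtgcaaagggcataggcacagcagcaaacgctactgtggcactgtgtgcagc
Filled in LLC-R, chr19:43101859-43102099, plus strand: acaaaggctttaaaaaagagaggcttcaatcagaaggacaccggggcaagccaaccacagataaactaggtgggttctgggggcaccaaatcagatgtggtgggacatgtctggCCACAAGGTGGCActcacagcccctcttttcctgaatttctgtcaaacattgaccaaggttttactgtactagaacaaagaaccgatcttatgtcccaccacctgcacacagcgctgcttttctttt

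Around the TSSs of CpG-rich promoters, H3K9ac peaks were densest at the nucleosomes just downstream, in both lines. Promoters of 21418 protein-coding genes were grouped by CpG content into high (HCPs, 11714), intermediate (ICPs, 3655) and low (LCPs, 6049). In HCPs the +1 nucleosome, the first downstream of the TSS, was centred at 125 bp for LLC-NR and 135 bp for LLC-R. These positions fall in neighbouring bins of 10 bp. The density there reached 1.87 fold in LLC-NR against 1.81 fold in LLC-R. The +2 nucleosome at 315 and 325 bp reached 1.5 and 1.46 fold, and the -1 nucleosome at -195 bp reached 1.42 and 1.30 fold. Each of these maxima was thus slightly lower in LLC-R. Over the whole promoter, from -1 to +0.5 kb, the density of HCPs was 1.15 fold for LLC-NR and 1.12 fold for LLC-R. The log2 ratio was -0.037 (95% interval -0.053 to -0.022).

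The largest difference among the windows measured at HCPs lay in the nucleosome-depleted window, from -150 to -1 bp. It held 4369 midpoints in LLC-NR, or 0.730 fold (0.708 to 0.752), and 3573 in LLC-R, or 0.650 fold (0.628 to 0.671). The log2 ratio was -0.168 (-0.232 to -0.104). Downstream, from 0.5 to 2 kb, the density was 1.23 fold in LLC-NR against 1.24 fold in LLC-R, with a log2 ratio of 0.010 (-0.005 to 0.025). The depleted window was thus emptier in LLC-R while the gene start behind it held the same density within counting error. In LCPs the same window held 0.938 and 0.949 fold, with a log2 ratio of 0.016 (-0.060 to 0.091). In ICPs it held 1.03 and 0.995 fold, with a log2 ratio of -0.054 (-0.148 to 0.040).

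The other marks were read in the same HCP window. H3K4me3, the methylation typical of active starts, had a log2 ratio of -0.177 (-0.228 to -0.125). H3K27me3, the Polycomb mark, had -0.043 (-0.10 to 0.013). H3K36me3, which marks the bodies of transcribed genes, had 0.559 (0.476 to 0.642). Peaks of H3K9ac and H3K4me3 were thus less dense in the window in LLC-R, and those of H3K36me3 were denser.

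Of genes with the lowest and the highest density of H3K36me3 peaks, the emptier window was found in the highest. HCP genes of at least 5 kb were split into quintiles by their H3K36me3 density from 1 kb after the TSS to the gene end, in each line on its own. Of 10055 such genes, 42.6% fell in the same quintile in both lines. In both lines 940 fell in the highest quintile and 1339 in the lowest. For the highest quintile, the depleted window held 335 H3K9ac midpoints for LLC-NR and 230 for LLC-R, or 0.698 and 0.521 fold. The log2 ratio was -0.420 (-0.663 to -0.178). For the lowest quintile it held 445 and 449 midpoints, or 0.651 and 0.714 fold, with a log2 ratio of 0.135 (-0.054 to 0.324). The ratio of the highest quintile minus that of the lowest was -0.55 (-0.86 to -0.25). The same difference was -0.41 (-0.65 to -0.17) for H3K4me3 and 0.36 (0.08 to 0.63) for H3K27me3.

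The +1 nucleosome did not share this contrast. In the highest quintile it held 1.62 fold in LLC-NR against 1.55 fold in LLC-R, and in the lowest 0.848 and 0.845 fold. The difference of their log2 ratios was -0.06 (-0.28 to 0.17). Across all quintiles taken in each line, H3K9ac at the +1 nucleosome went from 0.924 fold in the lowest to 1.58 fold in the highest in LLC-NR. In LLC-R it went from 0.978 to 1.54 fold. The depleted window held 0.684 fold in the lowest and 0.704 fold in the highest quintile of LLC-NR. In LLC-R it held 0.685 fold in the lowest and 0.559 fold in the highest. The quintiles between also held less in LLC-R. The values for LLC-NR and LLC-R were 0.761 and 0.733 fold in the second, 0.741 and 0.623 in the middle, and 0.732 and 0.584 in the fourth. In the resistant tumor the window was thus emptiest at the genes richest in H3K36me3, and in the sensitive tumor the lowest and highest quintiles overlapped in their intervals.

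**Figure D1:**
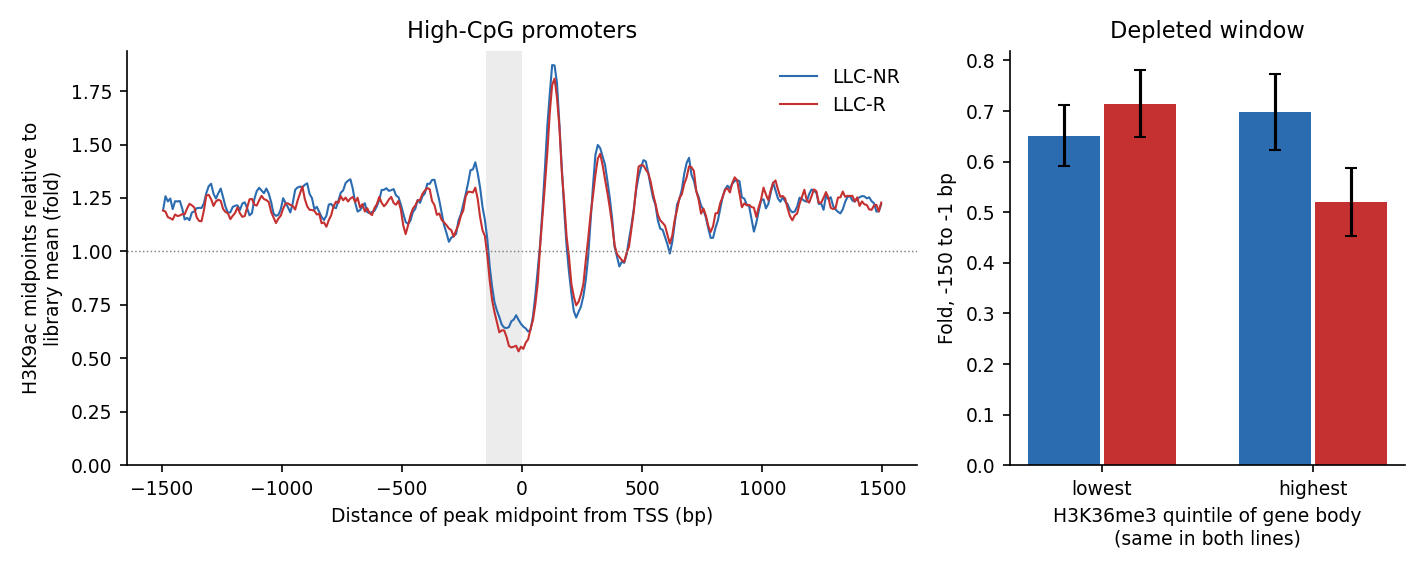
H3K9ac around the TSSs of high-CpG promoters. Left, density of peak midpoints relative to the library mean against distance from the TSS in bp, smoothed over 3 bins of 10 bp, with the window from -150 to -1 bp shaded; the LLC-R line runs below LLC-NR in the shaded window (0.650 against 0.730 fold). Right, density in that window for genes in the lowest and highest H3K36me3 quintile of both lines, with bars of the 95% counting interval; LLC-R is lower only for the highest quintile shown (0.521 against 0.698 fold).

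The same midpoints were also counted promoter by promoter, which adds no evidence to the pooled window. Of the 64 HCPs in the gene lists described below, 20 had a midpoint from -150 to -1 bp in LLC-NR only, 5 in LLC-R only, 16 in both lines and 23 in neither. Over all 11714 HCPs, 20.3% had one in LLC-NR only and 13.5% in LLC-R only. The Pkm2, Smarca4 and Ptk2 windows printed above belong to the group of 20. Cytosolic ribosomal protein genes, among the most strongly transcribed, had the +1 nucleosome at 135 bp in both lines, at 2.97 fold for LLC-NR and 3.10 fold for LLC-R. The promoters of 1106 olfactory receptor genes, which are silent outside the nose, stood at 0.960 and 0.929 fold. Their depleted window held 0.968 and 0.872 fold, with a log2 ratio of -0.15 (-0.330 to 0.030), close to that of the HCPs but with an interval that includes 0.

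CTCF motif matches away from TSSs lay in ordered H3K9ac arrays that were shallower in LLC-R. The motif had 2602 matches on chromosomes 1 to 19, of which 1939 lay at least 5 kb from any TSS. Of all 1-kb tiles at that distance, 0.0953% held a match. The match is a stretch of letters, and binding of CTCF was not measured. The first nucleosome upstream, at -145 bp, reached 2.69 fold in LLC-NR against 2.10 fold in LLC-R, and the first downstream, at 145 bp, 2.23 and 1.79 fold. The second upstream, at -315 bp, reached 2.09 and 1.66 fold. In the flanks from 100 to 190 bp on both sides, the log2 ratio was -0.248 (-0.341 to -0.156).

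On the match itself the direction was the opposite. Within 75 bp of the middle, LLC-NR held 0.712 fold (0.659 to 0.764) and LLC-R 0.834 fold (0.775 to 0.893), and the log2 ratio of the counts was 0.232 (0.084 to 0.379). From 1 to 1.5 kb away both lines were close to each other, at 1.13 and 1.11 fold. The peaks were thus spread more evenly over the site in LLC-R, with less in the flanks and more on the match. H3K4me3 showed the like pattern, with the upstream flank at 2.34 fold for LLC-NR and 1.77 fold for LLC-R and the centre at 0.667 and 0.771 fold. In the other marks the centre was also higher in LLC-R, at 0.748 and 0.787 fold for H3K27me3 and 0.662 and 0.764 fold for H3K36me3. Their flanks differed from the pattern, since they were not lower on both sides. For H3K27me3 the first nucleosome upstream was at 2.41 and 2.15 fold and the first downstream at 1.84 and 1.88 fold. For H3K36me3 these were at 2.09 and 1.99 fold and at 1.70 and 1.72 fold, while the second was higher in LLC-R on both sides (1.65 and 1.80 fold upstream, 1.40 and 1.58 fold downstream). In both of these marks the LLC-R library held more peaks, and the part of peak number in the CTCF values was not tested.

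The matches were also counted singly. An H3K9ac midpoint was missing within 75 bp of 1229 of 1939 matches (63.4%) in LLC-NR and of 1173 (60.5%) in LLC-R. Among the centres of all 1-kb tiles at least 5 kb from a TSS, 49.5% were free in LLC-NR against 53.5% in LLC-R. In the tiles LLC-R thus had the larger share of free centres, and at the matches LLC-NR had it. Both lines lacked a midpoint at 871 matches (44.9%), as at the Cntfr site printed above, and at 33.5% of tiles. A further 358 matches were free in LLC-NR but filled in LLC-R, as at the Hpse2 site, and 302 were free in LLC-R but filled in LLC-NR.

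**Figure D2:**
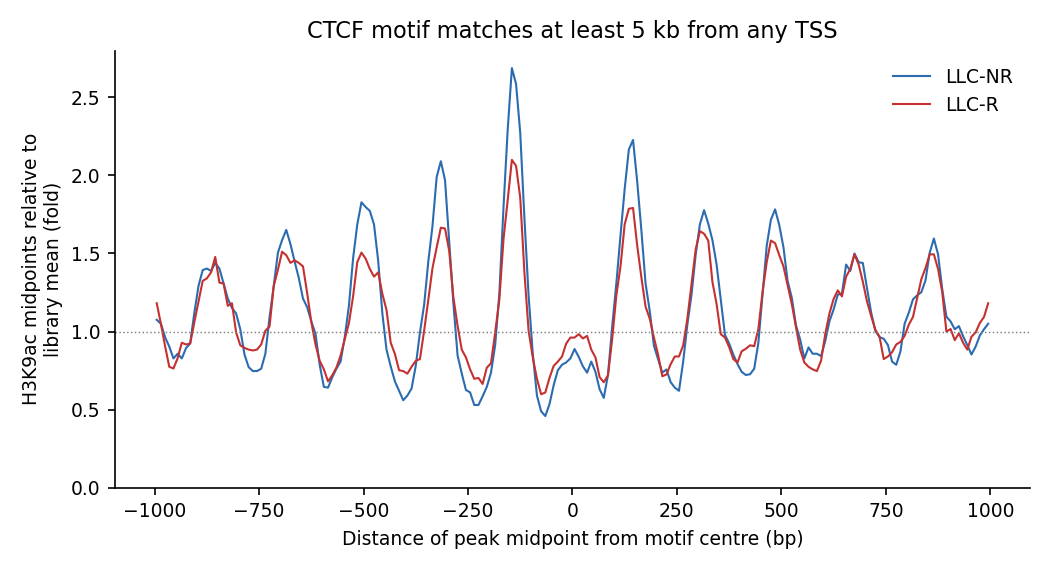
H3K9ac around 1939 CTCF motif matches at least 5 kb from any TSS. The lines give the density of peak midpoints relative to the library mean against the distance from the middle of the match in bp, oriented by strand and smoothed over 3 bins of 10 bp; the maxima next to the match are lower in LLC-R (2.10 against 2.69 fold at -145 bp) and the centre is higher.

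Long gaps between neighbouring H3K9ac peaks were also more frequent in LLC-R, whose library held fewer peaks. The commonest distance from a midpoint to the next was 154 bp for LLC-NR and 155 bp for LLC-R, close to the width of a peak. The median distance was 235 bp in LLC-NR against 252 bp in LLC-R. Distances over 400 bp, which leave room for a missing nucleosome, followed 10.9% of peaks for LLC-NR and 16% for LLC-R. Runs of at least 5 peaks with gaps of up to 220 bp held 13.1% of LLC-NR peaks and 7.94% of LLC-R peaks. The longest run had 22 peaks in LLC-NR against 18 in LLC-R. These measures moved with the number of peaks. For H3K27me3, with more peaks in LLC-R, distances over 400 bp followed 20.2% of peaks for LLC-NR and 8.11% for LLC-R. For H3K36me3, also with more peaks in LLC-R, the shares were 27.5% and 10.2%. For H3K4me3, with nearly equal peak numbers, they were 35.4% and 36.7%.

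The nucleosome repeat was read as the period of the wave in the distances from 300 to 1400 bp between peaks, and came to 191 bp in LLC-NR against 193 bp in LLC-R. Near TSSs it was 183 and 186 bp, in gene bodies 192 and 194 bp, and in intergenic space 192 and 193 bp. Nucleosomes near TSSs were thus packed more closely than elsewhere in both lines. The repeat was longer in LLC-R by 1 to 3 bp in every region measured. The amplitude of the wave was 11.0% of the mean for LLC-NR and 8.66% for LLC-R, and 17.2% and 12.8% near TSSs. For the other marks the repeat was also longer in LLC-R, at 190 and 194 bp for H3K4me3, 193 and 195 bp for H3K27me3, and 189 and 193 bp for H3K36me3. The wave of H3K27me3 and of H3K36me3, whose LLC-R libraries held more peaks, was higher in LLC-R (12.2% against 9.68%, and 10.8% against 6.83%). That of H3K4me3, with nearly equal peak numbers, was lower in LLC-R (4.36% against 5.46%). The part of peak number in the amplitude was not tested.

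**Figure D3:**
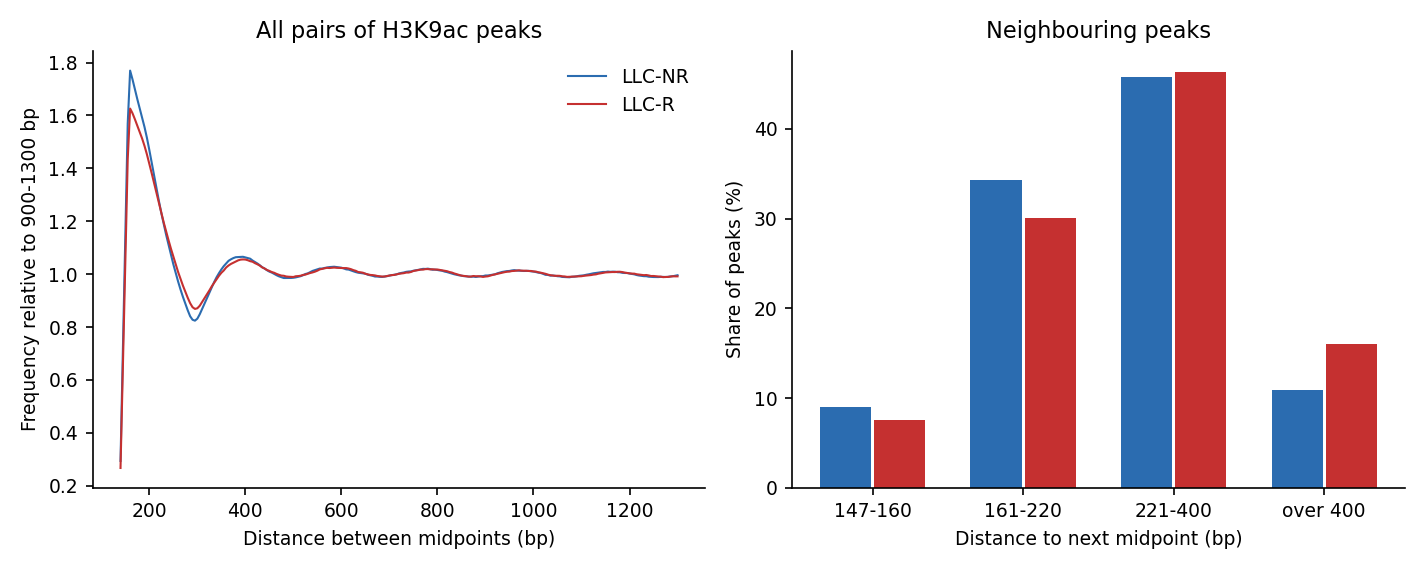
Distances between H3K9ac peaks. Left, frequency of each distance in bp between any pair of midpoints, relative to the mean from 900 to 1300 bp, where LLC-NR and LLC-R rise and fall together at a repeat of 191 and 193 bp. Right, share of peaks in percent by the distance to the next midpoint; the class over 400 bp holds 10.9% of LLC-NR and 16% of LLC-R peaks.

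Most H3K9ac positions were shared between the lines. Midpoints within 73 bp of each other formed 5036070 pairs, or 61.8% of the LLC-NR peaks and 67.2% of the LLC-R peaks. Since the peaks of the other library already cover 46.0% and 50.1% of the sequence, this was 1.34 times the share that coverage gives. Within 20 bp the shares were 33.2% and 36.1%, or 2.59 times that share. Of the pairs, 25.1% differed by at most 5 bp. Peaks of different marks in the same line lay near each other about as often, at 1.32 to 1.35 times coverage within LLC-NR and 1.31 to 1.32 within LLC-R. Within 73 bp the overlap of H3K9ac between the lines thus differed little, relative to coverage, from that between marks. Within 20 bp the marks stood at 2.40 to 2.54 times coverage in LLC-NR and 2.16 to 2.46 in LLC-R. The value of 2.59 for H3K9ac between the lines was above each of these.

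The share of peaks near one of the other line, not corrected for local coverage, was highest near TSSs and lowest far from genes. Peaks were also denser near TSSs, at 3.87 per kb in LLC-NR and 3.53 in LLC-R before scaling. Over 100 kb from a gene they stood at 3.03 and 2.81 per kb. The part of peak density in this gradient was not tested. Of LLC-NR peaks, 66.4% were shared in TSS regions, 63.7% in introns and 57.0% in intergenic space over 100 kb from a gene. Of LLC-R peaks, the shares were 72.7%, 69.5% and 61.4%. Shared peaks were richer in GC, at 44.0% in LLC-NR, and held 1.33 CpGs each. Peaks found only in LLC-NR had 41.6% GC and 1.20 CpGs, and those found only in LLC-R had 43.1% GC and 1.26 CpGs. Line-only peaks were less often near a nucleosome with another mark. In LLC-NR, 36.1% of them lay within 73 bp of an H3K4me3 peak of that line, against 49.4% of the shared ones, and in LLC-R 36.5% against 47.3%.

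Gene bodies and intergenic space held nearly the same shares in both lines. From 1 kb after the TSS to the gene end, 15864 genes of at least 5 kb held 3.72 peaks per kb in LLC-NR against 3.41 in LLC-R before scaling. As shares of each library's own peaks, the log2 ratio was -0.003 (-0.005 to -0.001). Space at least 1 kb from any annotated gene held 52.4% of LLC-NR peaks and 52.5% of LLC-R peaks. Coding sequence (CDS) stood apart, with 1.19 fold for LLC-NR and 1.24 fold for LLC-R and a log2 ratio of 0.056 (0.043 to 0.068). Untranslated regions, the exon parts outside the coding frame, had -0.027 (-0.039 to -0.015), and introns had -0.003 (-0.006 to -0.001). In CDS the ratio was 0.019 for H3K4me3, 0.040 for H3K27me3 and -0.152 for H3K36me3. With distance from genes the H3K9ac ratio went from -0.016 (1 to 10 kb) through 0.005 (10 to 100 kb) to 0.014 (over 100 kb). The density over 100 kb from genes was 0.891 fold in LLC-NR against 0.899 fold in LLC-R. After scaling by each library's own peaks, all these H3K9ac differences are under 5% of the density.

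Along whole chromosomes the ratio lay between -0.045 on chromosome 17 and 0.100 on chromosome 18. Chromosome 18 was also the highest of the 19 for H3K4me3 (0.205), H3K27me3 (0.123) and H3K36me3 (0.165). In 1193 bins of 2 Mb the H3K9ac ratio had an SD of 0.0501 and ran with the H3K4me3 ratio of the same bins (Pearson's r = 0.75 as a description; the bins share the genome of each tumor). Without chromosomes 5, 15, 16, 18 and 19 this r was 0.61. The part of copy number in these ratios was not tested.

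**Figure D4:**
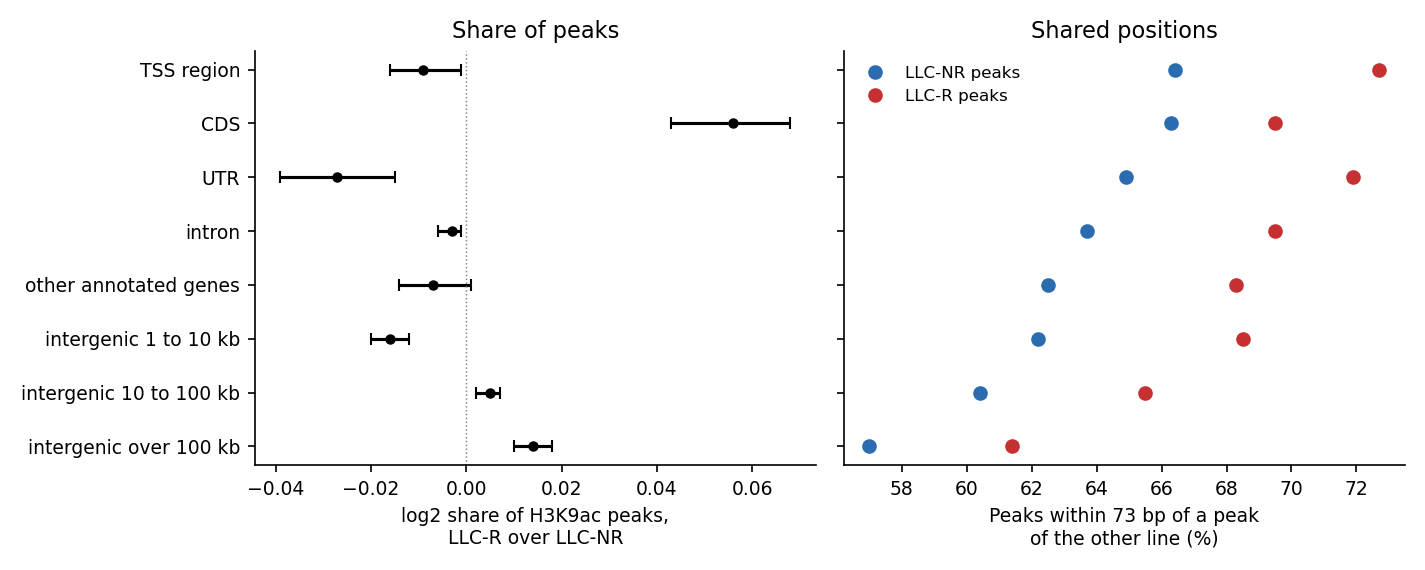
H3K9ac by genomic region. Left, log2 ratio of the share of peaks in LLC-R over LLC-NR with its 95% counting interval; coding sequence (CDS) lies farthest from 0, at 0.056. Right, percent of each line's peaks within 73 bp of a peak of the other line, on an axis that does not start at 0. Both lines run from the highest share in TSS regions (66.4% and 72.7%) to the lowest over 100 kb from genes (57.0% and 61.4%). These shares are not corrected for the peak density of the region.

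Single promoters differed by few peaks. A promoter from -1 to +0.5 kb held 5.57 peaks on average for LLC-NR and 5.02 for LLC-R, and at most 9 in either line. The number differed by at most 1 peak in 72.5% of promoters. Past a log2 ratio of 0.5, with a pseudocount of 1 peak, 1211 of 21418 promoters (5.65%) were higher in LLC-R and 1433 (6.69%) were lower. A change of a few peaks was enough to cross this threshold, and no test stands behind it. The median over all promoters was -0.06.

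The gene lists were read against these shares. Of 110 list genes, 6 (5.45%) were higher in LLC-R and 8 (7.27%) lower, near the shares over all genes, so the counts are no result about the lists. From -2 to +2 kb, 1 of the 110 passed the threshold, Hdac5 (-0.52), so that none of the other calls below held in the wider window. Among VEGF ligands and receptors, the targets of the drug and their partners, the promoter of Vegfa held 6 peaks in each line and that of the receptor gene Kdr also 6 in each. Pgf, which encodes a ligand that VEGF-Trap also binds, had 5 in LLC-NR against 7 in LLC-R (log2 ratio 0.52). Flt4, the receptor for Vegfc, had 4 and 2 (-0.65), and the coreceptor gene Nrp2 had 7 and 4 (-0.58, but -0.31 from the most upstream TSS). The list of 9 measured genes had a median of 0.10, with 1 past the threshold upwards and 2 downwards. In the angiopoietin list of 5 genes the median was -0.12, and 1 passed upwards, the endothelial receptor gene Tie1 with 4 and 6 peaks (0.59).

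Genes of the H3K9ac machinery differed as little. Of 9 acetyltransferase genes and partners, 1 was higher, Crebbp with 5 and 7 peaks (0.52), while Kat2a had 7 and 5 (-0.31) and Kat2b 8 and 6 (-0.26). Of 14 measured deacetylase genes, 1 was lower, Hdac5 with 7 and 3 peaks (-0.91), and Hdac2 had 7 in each line. Of 8 acetyl-lysine reader genes, 2 were higher, Mllt3 and Yeats4, each with 5 and 7 peaks (0.52). From the most upstream TSS the ratio of Mllt3 turned to -0.31. The medians of these lists were -0.12, 0.11 and -0.14. Of 13 housekeeping genes, 1 was lower, Tuba1b with 7 and 4 peaks (-0.58), with a list median of -0.06.

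Marker genes of other cell types were read in the same way. Promoters of silent and active genes both held peaks, so these lists could not tell tissues apart. The labels give the tissue as lung, while the isografts grew under the skin. Lung epithelial markers had a mean of 5.67 peaks for LLC-NR and 4.78 for LLC-R, beside 5.57 and 5.02 over all genes. Their list median was -0.31, with Aqp5 higher (3 and 5 peaks) and the surfactant gene Sftpd lower (6 and 2). Of 12 leukocyte markers none passed the threshold either way, and the median was -0.09. Of 8 endothelial markers, Tie1 was higher. Of 9 fibroblast and pericyte markers, the proteoglycan gene Lum was lower with 8 and 4 peaks (-0.75), and 8 of 9 had fewer peaks in LLC-R before scaling. Over all genes this was so for 10910 of 21418. Of 12 epithelial and mesenchymal genes, the mesenchymal regulators Snai2 (8 and 4 peaks, -0.75) and Twist1 (7 and 4, -0.58) were lower. The list median was -0.12, and no other member passed the threshold. The other mesenchymal genes of the list went both ways. The part of host cells in these values was not tested.

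**Figure D5:**
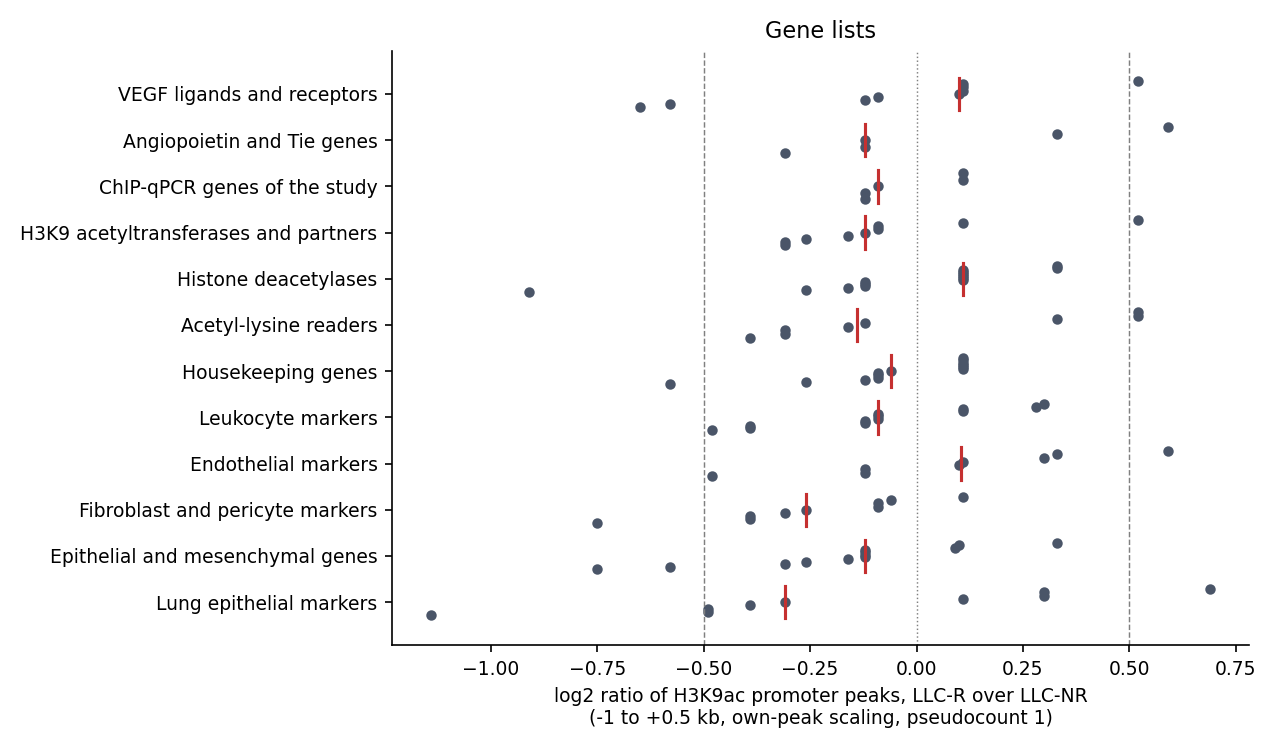
Log2 ratio of H3K9ac promoter peaks in LLC-R over LLC-NR for each gene of the lists. Each point is a gene, red bars are list medians and dashed lines mark the threshold of 0.5 either way; list medians lie between -0.31 and 0.11.

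The study used 5 genes for ChIP-qPCR, and the primer pairs place its amplicons on these maps. The pair for Smad3, a transcription factor of TGF-beta signalling, and the pair for Mapk9, the JNK2 kinase gene, are shown. Their amplicons lie in CpG-rich promoters, as does that of Ptk2.
Smad3 forward: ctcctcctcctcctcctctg
Smad3 reverse: tgcgtgaaacgtagacttgg
Mapk9 forward: acactgtagtcgcaaagtcacg
Mapk9 reverse: tgcacagagttagggatccag

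Each primer pair was found once in mm9 in the stretch from 20 kb before to 20 kb after its annotated gene, which for Nfkb1 reaches upstream of the TSS used here. The Smad3 amplicon ran from -195 to -89 bp of the TSS, with H3K9ac midpoints of LLC-NR at -247 and -95 bp and of LLC-R at -101 bp. The Mapk9 amplicon ran from -361 to -217 bp, with midpoints at -303 bp in LLC-NR against -286 bp in LLC-R. The Ptk2 amplicon, from -324 to -247 bp, had an LLC-NR midpoint at -280 bp, and the LLC-R midpoint stood at -207 bp. The Mmp9 amplicon, for a matrix metalloproteinase gene, lay inside the gene, 6810 to 6881 bp after the TSS, with 1 midpoint near it in each line. The Nfkb1 amplicon lay upstream, from -23700 to -23629 bp of the TSS shared by most transcripts, also with 1 midpoint in each line. The annotated Nfkb1 gene starts upstream of that TSS, so this is not the distance from its 5' end. The Nfkb1 promoter count given next belongs to that inner TSS. Over the promoter from -1 to +0.5 kb, Smad3 had 7 and 6 peaks, Ptk2 and Mapk9 had 6 in each line, and Nfkb1 and Mmp9 had 6 and 5. None passed the threshold.

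The promoters with the largest differences are given as a description, since they were ranked on the same counts. Among HCPs, Sez6l, a gene expressed in neurons, went from 0 peaks in LLC-NR to 5 in LLC-R from -1 to +0.5 kb, and from 10 to 13 within 2 kb on both sides. Mcm9, a helicase gene of DNA repair, and Scg3, a secretory granule gene, each had 4 and 8. Ascl2, which encodes a stem cell transcription factor of the gut, had 3 and 7, and Hook1, a microtubule linker gene, 2 and 6. From -2 to +2 kb the log2 ratios of these 5 promoters were 0.38 to 0.49, under the threshold. In the other direction Fam84b and the kinase gene Dyrk1b each had 6 peaks for LLC-NR and 1 for LLC-R. Nr3c2, the mineralocorticoid receptor gene, and Kifc1, a mitotic kinesin gene, each had 7 and 2, and from the most upstream TSS Nr3c2 had a log2 ratio of -0.49. Zhx2, a repressor gene, and Ppp6c, which encodes a phosphatase subunit, each had 8 and 3. H3K4me3, which was not used for the ranking, held 4 and 5 peaks in the promoter of Sez6l, 7 and 3 in that of Fam84b, 7 and 5 in that of Nr3c2 and 7 in each line in that of Zhx2.

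Outside HCPs, Retnla, a marker gene of alternatively activated macrophages, had 4 peaks in LLC-NR against 8 in LLC-R, and Syt1, the calcium sensor of synaptic vesicles, 3 and 7. From -2 to +2 kb their log2 ratios were 0.41 and 0.20. The bitter taste receptor gene Tas2r131 had 7 and 1, and Phf11 had 5 and 0. Gene bodies of at least 20 kb with the most extreme ratios were mostly members of families of similar genes. Sprr2a3 had 0 and 4 peaks, Vmn2r62 2 and 4, and Vmn2r30 3 and 0. These counts are small, so their ratios are uncertain, and the part of unique read mapping in them was not tested. Tmem181a had more, 30 peaks for LLC-NR and 11 for LLC-R (-1.26), with -0.87 for H3K4me3, 0.82 for H3K27me3 and 0.59 for H3K36me3.

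Intergenic tiles of 10 kb held a median of 34 peaks in LLC-NR against 32 in LLC-R. Of 112427 tiles with at least 10 peaks in 1 library, 95% had a log2 ratio between -0.36 and 0.37. The ratio passed 1 upwards in 32 tiles and downwards in 48. Of the 3 highest, 1 lay 153709 bp from Mmp16, a matrix metalloproteinase gene, at chr4:18200001-18210000, with 4 and 13 peaks (1.60). The other marks in that tile held 4 and 4 (H3K4me3), 8 and 16 (H3K27me3) and 6 and 13 (H3K36me3). Of the 3 lowest, 1 lay 1273370 bp from Pcdh17, a protocadherin gene, at chr14:83560001-83570000, with 10 and 2 peaks (-1.79). H3K4me3 held 5 and 6 peaks there.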

How the data were processed

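H3K9ac and 3 other histone marks were profiled in LLC-NR and LLC-R tumors, with 1 library for each line and mark. Per the labels and the study's methods, the authors aligned reads to mm9 with Bowtie 0.12.7, kept unique reads and called nucleosome positions with GeneTrack. The deposited tables give the start and end of each 147-bp peak as positions, without heights, read counts or p-values. The coordinates count from 0, which was tested on the strand symmetry of AA and TT around midpoints on chromosomes 1 and 2, and 1 bp was added. Midpoints on chromosomes 1 to 19 were counted around the TSS shared by most transcripts (GENCODE vM1), in genomic regions and at motif matches, with Python 3.11.15, numpy 2.4.6 and pandas 2.3.3. Counts were divided by each library's own peaks. Log2 ratios have 95% Poisson counting intervals, and promoters past 0.5 with a pseudocount of 1 peak were counted. The functions were tested on simulated data. Named genes were the list genes and those ranked highest and lowest by promoter difference (10 each for HCPs, 5 each for the others), by body ratio (genes of at least 20 kb) and by 10-kb tile ratio, with names of predicted genes left out. Members, lists and tests were chosen with earlier results of these data known. Alternatives were another TSS, window, scaling, pseudocount, distance and set of chromosomes. The alternatives that left out chromosomes 5, 15, 16, 18 and 19 from the depleted window and the CTCF matches, and that scaled the depleted window on distant windows, were chosen after seeing the data. The value of 1 list gene is not reported here.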

Additional observations from a re-analysis of the deposited data

Results flagged for a closer look

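Chromosome Y was outside every comparison above. The LLC-NR library held 328 H3K9ac peaks there and the LLC-R library held 1993. The other marks held 48 to 85 peaks on it in LLC-NR and 1497 to 3205 in LLC-R. These counts were picked out because they lie in data that the comparisons do not use and exceed the limit that a count of 0 allows.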

How the results depend on the processing

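The ratio at HCPs was -0.017 from -2 to +2 kb and otherwise stayed within its interval. The depleted window, the +1 position, gene bodies and the CTCF flanks and centres stayed within their intervals or 10 bp under each alternative run. On the plus strand alone the interval of the CTCF centre included 0 (0.134, -0.075 to 0.342). Spacing read as the median under 0.4 kb was 223 bp in LLC-NR and 231 bp in LLC-R, and as the repeat 191 and 193 bp. Shared positions were 33.2% and 36.1% within 20 bp, 44.8% and 48.7% within 40 bp, and 62.0% and 67.6% without chromosomes 5, 15, 16, 18 and 19. The intergenic ratio was 0.006 at least 5 kb from any gene. From -2 to +2 kb, 341 promoters were higher and 527 lower, and of the list genes 0 were higher and 1 was lower. The cause was not tested. For single named promoters, 144 alternative values kept their direction and stayed past 0.5, 31 kept it without passing 0.5, and 1 was reversed (Mllt3, -0.31 from the most upstream TSS). The smaller pseudocount enlarges a ratio and the scaling shifts it by -0.003, so these alternatives could hardly take a value under 0.5. Most of the 31 came from the window of -2 to +2 kb, where most of the named promoters fell under 0.5. No paired analysis was possible because each line has 1 library per mark. With 1 library in each line, replicates could not be left out, and depth differs between the lines.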
